A study of Mus musculus with 6 samples.

Results

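The cells described here were the barcodes of 6 single-cell RNA-seq libraries that passed a plain quality filter but had no row in the cell table that the authors deposited. Members were chosen by their number of detected genes, their mitochondrial share and their absence from that table. A barcode was a member if it had at least 1000 detected genes, at most 10% of its UMIs (unique molecular identifiers, each counting 1 captured transcript) in mitochondrially encoded genes, and no table row under its library and barcode. Of 48510 barcodes, 21461 passed the filter, and 4889 of these were outside the table. The table itself held 16822 cells, each assigned to 1 of 4 classes (HSC, MPP2, MPP3 or MPP4), and 16572 of them passed the same filter. No value of a single gene entered the rule, but the authors assigned classes with gene module scores, and the highest score of every table cell was above 0. The table also held no cell under 1801 UMIs, whereas 176 members had 1800 UMIs or fewer, and no cell of AML library 2. Module scores of the members were not computed, so how far absence from the table was set by expression was not tested.

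The libraries came from a mouse model of acute myeloid leukemia (AML). C1498 cells, a mouse AML line that carries CD45.2, were injected into the bloodstream of healthy, non-conditioned C57BL/6J females that carry CD45.1, at 1000000 cells per recipient, and the control recipients received PBS. Recipients were 8 to 12 weeks old, and bone marrow was collected at day 21, depleted of lineage-marked cells and sorted for CD45.1+ Lin- cKit+ Sca1+ host cells. There were 3 AML and 3 PBS libraries made with 10x Chromium chemistry. The model rests on 1 transplantable line in 1 strain, and the labels do not say whether a library was 1 mouse or a pool, so p-values measure the spread between these libraries.

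Lin- cKit+ Sca1+ cells, or LSK cells, are the marrow fraction that contains hematopoietic stem cells (HSC) and multipotent progenitors (MPP). MPP subsets are known to lean toward different lineages, with MPP2 producing megakaryocytes and erythrocytes, MPP3 myeloid cells and MPP4 lymphoid cells. Interferons and other inflammatory signals are known to act on these cells directly, where they induce interferon-stimulated genes and change how often the cells divide and what they produce.

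Members were spread unevenly over the libraries. PBS libraries 1, 2 and 3 held 1811, 224 and 1406 members, and AML libraries 1, 2 and 3 held 229, 106 and 1113. They were 21.0%, 19.4% and 24.5% of the barcodes passing the filter in the PBS libraries, 28.6% in AML 1 and 22.0% in AML 3. In AML 2 they were all of them, because the table held no cell of that library. Members were about as deep as the table cells of their own library, with medians from 2143 UMIs in AML 1 to 10248 in PBS 2. Their summed UMIs ran from 306059 in AML 2 and 547474 in AML 1 to 8192622 in PBS 1, so the 2 shallow AML sums carried the widest counting error.

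AML 1 and AML 2 stood apart before any comparison. Only 9.11% of the barcodes of AML 1 and 0.622% of those of AML 2 passed the filter, against 89.7% to 92.0% in the other 4 libraries. The summed profiles of AML 1 and AML 2 correlated with the other libraries and with each other at 0.831 to 0.896 across genes, and the other 4 correlated with one another at 0.960 to 0.981, values that share depth and are given as description. For the comparison over all members, most of the gene lists and most of the named genes are given with and without both of them. Only 1 barcode sequence occurred among the members of more than 1 library, but many occurred among all barcodes of another. Of the 17055 barcodes of AML 2, 1223 were shared with PBS 2, which had 1256 in all, 1500 with PBS 1, 2472 with PBS 3 and 2408 with AML 3, and the pairs without AML 2 shared 138 to 631. Of the 106 members of AML 2, 75 had a barcode that was also in another library and 11 one that passed the filter there. In PBS 2 these were 220 and 2 of 224 members. Leaving out the 30 members of all libraries whose barcode passed the filter elsewhere, an alternative chosen after seeing the data, left the same 3 genes called in the main comparison. The 207 members with fewer than 1050 detected genes had a median of 1792 UMIs, and the 269 barcodes just outside the filter with at least 950 genes had a median of 1776.

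**Figure D1:**
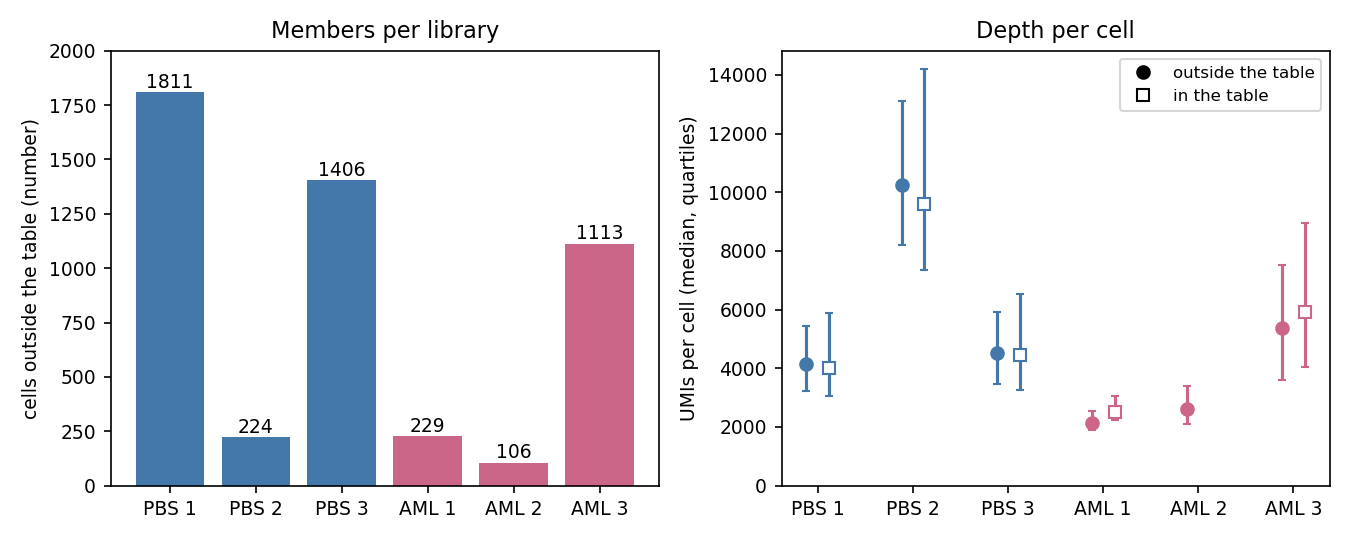
Left, the number of cells outside the table in each library; right, the median and quartiles of UMIs per cell outside (filled circles) and in (open squares) the table, PBS in blue and AML in red. The members number 1811, 224 and 1406 in PBS and 229, 106 and 1113 in AML, and the 2 smaller AML libraries have medians of 2143 and 2617.5 UMIs; AML 2 has no cells in the table.

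By their marker lists, the members carried the genes of the sorted LSK fraction. The 14 genes of the HSC and MPP list, among them Angpt1, Adgrl4 and Cd34, summed to 2320 to 2861 CPM (UMIs of a gene per 1000000 UMIs of the library) in the members of the 6 libraries. In the 5 libraries with table cells that was 0.985 to 1.24 times the level in the table cells of the same library. Every gene of the list was detected in the members. The lists of mature lineages varied widely in level. Late neutrophil granule genes summed to 3.75 to 16.3 CPM, with Ltf, Mmp8 and Ly6g at 0 in all libraries. Eosinophil genes summed to 0 to 4.88 CPM, with Epx and Ear6 at 0. Stromal genes stayed at or below 1.83 CPM, with Lepr, Col3a1, Bglap and Pdgfra at 0. T cell genes summed to 3.27 to 32.9 CPM. Other lists were higher, with primary granule genes at 908 to 3209 CPM, dendritic cell genes at 425 to 912, erythroid genes at 331 to 835, monocyte and macrophage genes at 174 to 634, endothelial genes at 342 to 402, B cell genes at 120 to 490.1 and NK cell and ILC genes at 200.3 to 249 CPM. Few genes carried some of these sums. In PBS 1, scaled as in the comparison below, Prtn3 was at 906 CPM, Car2 at 657, Bst2 at 229 and Flt3 at 123. The unscaled primary granule, erythroid and dendritic cell sums there were 1171, 820 and 462 CPM. Flt3 is also in the HSC and MPP list. In the 5 libraries with a table the erythroid list was at 0.775 to 1.29 times the table level, the endothelial list at 0.912 to 1.05 and the NK cell and ILC list at 0.932 to 1.13. A count of 0 allows a level of up to 9.80 CPM in AML 2 and 0.366 CPM in PBS 1 (3 UMIs over the members of the library), for counting error only.

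Some lists differed in size between members and table cells, in a contrast that the choice of members partly fixed and that was therefore not tested. Mitotic (G2M) genes, such as Top2a and Cdk1, were lower in the members of all 5 libraries with a table, at 0.272 to 0.738 times the table level. The summed lymphoid priming list was at 0.246 to 0.425 times the table level in 4 libraries and at 0.948 in AML 1. The mu heavy chain gene Ighm, which is in this list and in the B cell list, carried most of that gap, at 0.0371 to 0.0773 times the table level in the 4 libraries and 0.90 in AML 1. Without immunoglobulin genes the lymphoid priming list was at 0.598 to 0.956 times the table level, with Flt3 at 0.599 to 0.923 and Cd52 at 0.925 to 1.06. The B cell list was at 0.0720 to 0.141 times the table level in the same 4 libraries and at 0.873 in AML 1, and without immunoglobulin genes at 0.672 to 0.824 in all 5. Plasma cell genes were at 0.0358 to 0.0688 times the table level in those 4, and at 0.578 in AML 1. The genes of S phase showed no such gap, at 1.06 to 1.23 times the table level, nor did the interferon-stimulated genes, at 0.923 to 1.06. In the primary granule list, with the protease gene Prtn3 and the myeloperoxidase gene Mpo, members were at 0.903 to 0.994 times the table level in PBS but at 0.626 and 0.576 in AML 1 and AML 3.

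**Figure D2:**
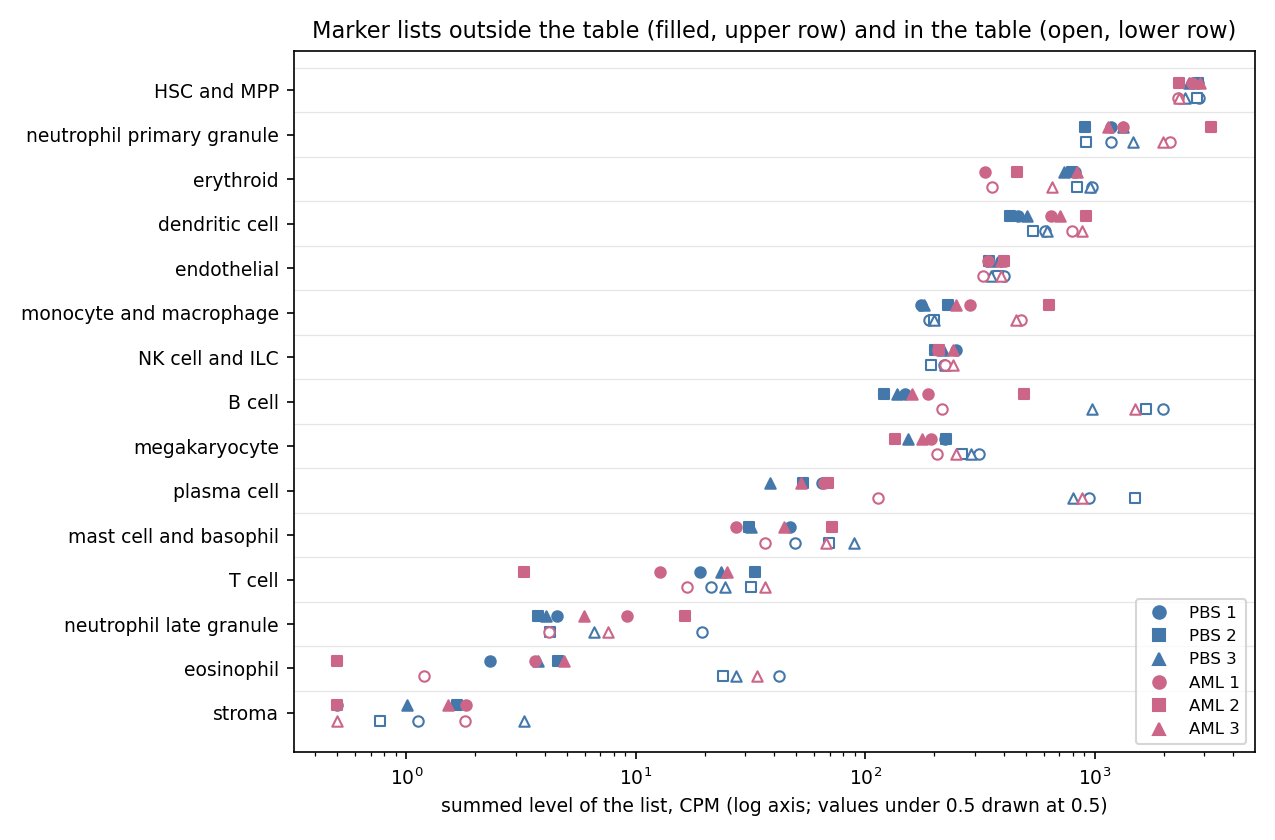
Summed level of each of 15 marker lists in CPM (log axis) for cells outside the table (filled, upper row of each pair) and in the table (open, lower row), with PBS in blue and AML in red. The HSC and MPP list lies between 2320 and 2861 CPM outside the table, and the B cell, plasma cell and eosinophil lists lie well to the left of the table cells in the PBS libraries and AML 3 (AML 2 has no table cells).

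Set beside each class of the table, the summed members were nearest to MPP4 in 4 of the 5 libraries that had one. Across 7984 genes, Pearson's r on log2 CPM with MPP4 was 0.982, 0.969 and 0.981 in PBS 1, 2 and 3 and 0.980 in AML 3. In AML 1 the nearest class was MPP2 at 0.941. The margins were small, for MPP3 in PBS 1 reached 0.981, and the points share library, depth and the size of each class, so the order is a description and assigns no class. The lymphoid priming list, whose genes are known from MPP4, was below the table level in the members as given above. It summed to 686, 630, 786, 1103 and 1070 CPM in the members of PBS 1, 2 and 3, AML 1 and AML 3. The MPP4 cells of these libraries were at 1761, 1863, 1828, 1841 and 2134 CPM, and the MPP2 cells at 601, 655, 754, 1012 and 975 CPM.

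Clustering of the members gave 7 clusters, which are numbered because they divided by library and cell cycle as well as by lineage. Cluster 0 (1803 cells) held 78.6% of PBS 2 and 73.3% of PBS 3 but 5.19% of PBS 1. Cluster 1 (1357 cells), led by the immediate early genes Fos, Ier2 and Jund, held 71.1% of PBS 1 and at most 4.58% of any other library. Cluster 2 (828 cells) was led by the S phase genes Pclaf, Rrm2 and Tk1 and held 9.38% to 22.6% of every library. Ly86, Cox6a2, Dntt, Ctsg, Clec12a and Slpi were also among its leading genes, so it mixed cycle genes with genes of several lineages. Cluster 3 (448 cells) was led by Rnf220, Msi2 and Mecom, the last a stem cell transcription factor, and reached 24.3% in AML 3.

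Cluster 4 (372 cells) was led by the mitotic genes Ube2c, Ccnb2 and Cenpa. The hemoglobin gene Hbb-bs was also among its leading genes at 346 CPM, but a single AML 3 cell held 479 of its 491 UMIs in the cluster, and without that cell it was at 8.51 CPM against 11.9 CPM in the other members. It held 72.1% of AML 1 and 66.0% of AML 2 but 2.79% of AML 3 and 0.446% to 3.70% of the PBS libraries. Cluster 5 (66 cells) mixed 27 cells with at least 5 UMIs of Car1, a carbonic anhydrase gene of erythroid cells, with 17 cells with at least 2 UMIs of T cell receptor genes, and 1 cell had both. Cluster 6 (15 cells) was led by the MHC class II genes Cd74 and H2-Aa with Cst3. Clusters 5 and 6 stayed unnamed. No share passed a test between AML and PBS. Exact two-sided permutation p-values, from the 20 ways to divide 6 libraries 3 against 3, ran from 0.3 to 1 (0.933 to 1 after Benjamini-Hochberg adjustment over 7 clusters), and 3 against 3 cannot go below 0.1.

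**Figure D3:**
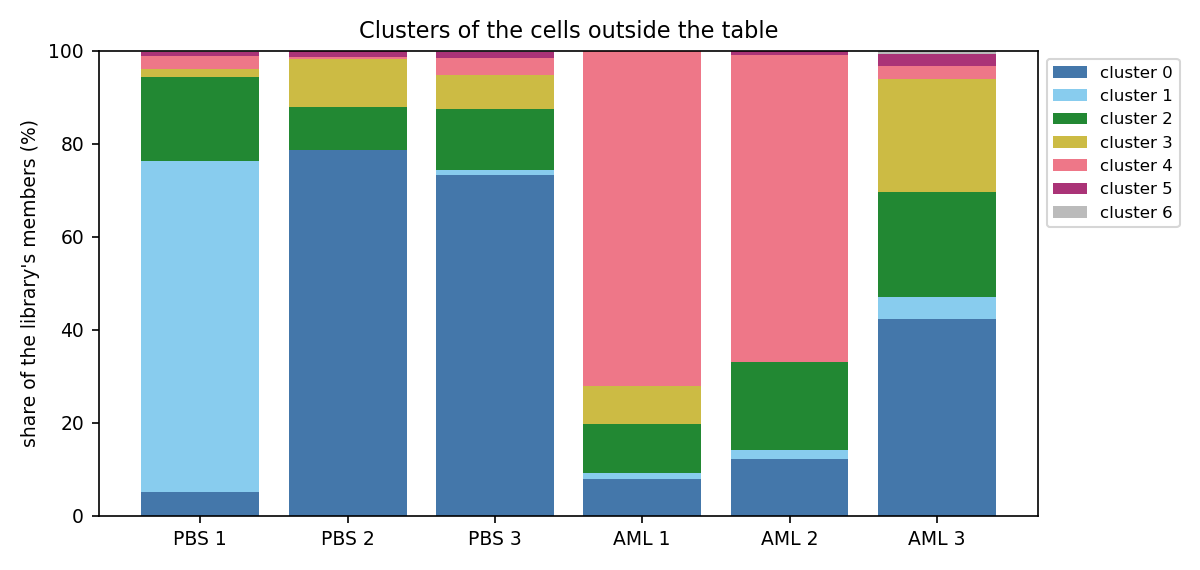
Share of each library's members in clusters 0 to 6, in percent, 1 stacked bar per library. Cluster 1 fills 71.1% of PBS 1, and cluster 4 fills 72.1% of AML 1 and 66.0% of AML 2 but 2.79% of AML 3.

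The main comparison asked which genes differed between AML and PBS recipients in the summed members, the cells that the class-based analysis left aside. Of 11166 genes tested, 3 were higher in AML and 0 were lower at an adjusted p under 0.05 (edgeR quasi-likelihood test, Benjamini-Hochberg), which is 0.0269% of the genes tested. The 3 genes were Ly86, Cxcl10 and Ifi27l2a. DESeq2 called 56 genes and limma-voom 3, all with these 3 among them. Leaving out 1 library gave between 0 calls (PBS 3, with 1136 genes at an unadjusted p under 0.05) and 803 calls (AML 3). At an unadjusted p under 0.05 there were 1313 genes, 810 higher (7.25%) and 503 lower (4.50%). AML libraries lay wholly above PBS libraries for 10.9% of the genes and wholly below for 11.3%. Gene levels below are CPM over the members of a library after TMM scaling, and folds are log2 with their standard error. In such sums, a change in the number of expressing cells and a change in the transcripts per cell cannot be told apart.

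Ly86 (ENSMUSG00000021423; GRCm38, chr13:37345208-37419036, plus strand) encodes MD-1, the partner protein of the Toll-like receptor homolog CD180. It was at 12.4, 3.57 and 23.9 CPM in PBS 1, 2 and 3 and at 130.1, 319.6 and 64.0 CPM in AML 1, 2 and 3. Every AML library was above every PBS library. The log2 fold change was 3.47 ± 0.524 (SE, 3 against 3 libraries) with an adjusted p of 0.0153 in edgeR. Ly86 was highest in the 2 libraries that stood apart, and without both of them the log2 fold change was 2.14 with an adjusted p of 0.0519. The call was also lost without PBS 1 (3.42, adjusted p 0.105) and without PBS 3 (4.16, adjusted p 0.140). The barcodes under the filter held Ly86 at 112 CPM in AML 1, 505 in AML 2 and 88.8 in AML 3, against 26.0, 126 and 25.3 in PBS, and the part of that RNA in the result was not tested. Of the 16949 barcodes of AML 2 under the filter, 6753 passed the filter in another library, and without such barcodes Ly86 was at 716 CPM there and at 39.3 CPM in PBS 2.

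Ifi27l2a (ENSMUSG00000079017; GRCm38, chr12:103442167-103443680, minus strand), an interferon-stimulated gene, was at 31.8, 52.2 and 60.9 CPM in PBS. The AML libraries were at 179.9, 195.5 and 130.4 CPM, with no overlap between the groups and the least change in AML 3. The log2 fold change was 1.78 ± 0.275 (SE) with an adjusted p of 0.0153 in edgeR. It was 1.44 without AML 1 and AML 2, with an adjusted p of 0.0902. Leaving out a single library ended the call for PBS 1 (1.55, adjusted p 0.183), PBS 2 (1.81, adjusted p 0.0819), PBS 3 (2.01, adjusted p 0.140) and AML 2 (1.65, adjusted p 0.0878). Its UMIs were spread over many cells, and the highest cell of AML 3 held 11 of 881. The barcodes under the filter held it at 80.0, 194 and 83.9 CPM in PBS and at 199.6, 106 and 191 CPM in AML, and the part of that RNA in the result was not tested.

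Cxcl10 (ENSMUSG00000034855; GRCm38, chr5:92346638-92348889, minus strand) encodes a chemokine that draws CXCR3-bearing T and NK cells and is induced by interferon gamma. It was at 2.44, 0.446 and 1.13 CPM in PBS and at 7.13, 15.5 and 15.1 CPM in AML, again with no overlap. The log2 fold change was 3.04 ± 0.464 (SE) with an adjusted p of 0.0153 in edgeR, and 3.21 with 0.00308 without AML 1 and AML 2. It did not pass without PBS 2 (2.82, adjusted p 0.0535) or without PBS 3 (2.83, adjusted p 0.256). The counts behind it were few, at 21, 1 and 7 UMIs for PBS and at 4, 5 and 102 for AML. In AML 3 a single cell held 42 of the 102 UMIs, and 60 were left without it. The barcodes under the filter held Cxcl10 at 4.0, 0 and 0 CPM in PBS and at 4.79, 13.4 and 37.0 CPM in AML, which was not tested further. Cxcl9, its close relative, did not pass the filter on low counts, with UMI counts of 5, 0 and 3 for PBS and 0, 0 and 27 for AML, 17 of them in 1 cell.

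Among the other genes that the study singled out, none passed the test. Isg15, the ubiquitin-like interferon-stimulated protein, was at 124, 117 and 157 CPM in PBS and 237, 338 and 295 CPM in AML, which did not overlap (log2 fold change 1.12 ± 0.238, edgeR adjusted p 0.0772). Irf8, a transcription factor of monocytes and dendritic cells, was at 14.9, 4.46 and 24.7 CPM in PBS and 74.8, 117.9 and 38.0 CPM in AML (2.10 ± 0.436, adjusted p 0.0772). Irf7, which drives type I interferon transcription, was at 61.8, 49.5 and 47.1 CPM in PBS and 55.2, 114.8 and 139.9 CPM in AML. AML 1 lay inside the PBS range there, and the log2 fold change was 1.01 ± 0.285 with an adjusted p of 0.218. Without AML 1 and AML 2 it was 1.40 with an adjusted p of 0.0359. Nfkb1 (0.14 ± 0.235, adjusted p 0.840) and Nfkb2 (0.76 ± 0.430, adjusted p 0.485), subunits of NF-kB, gave the smallest folds, and Nfkb2 rested on 2 to 42 UMIs a library. The folds without AML 1 and AML 2 were 1.15 for Isg15, 1.26 for Irf8, 0.20 for Nfkb1 and 0.80 for Nfkb2.

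**Figure D4:**
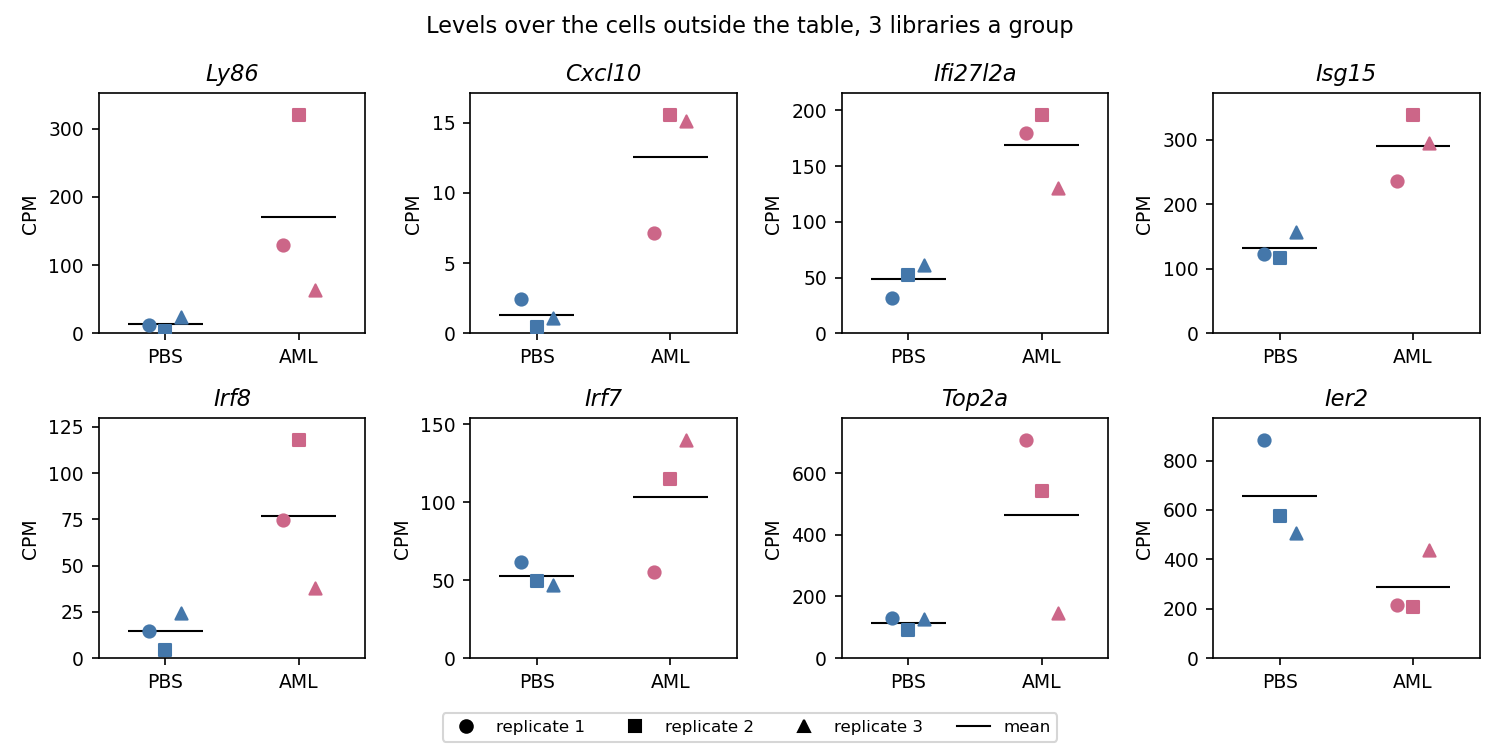
CPM of 8 genes over the cells outside the table, 1 point per library (shape gives the replicate number, which was not used to pair the groups) and a line at the mean of 3 libraries. Ly86, Cxcl10 and Ifi27l2a passed the test; for Ly86 and Irf8 AML 3 lies nearest to PBS, for Irf7 AML 1 overlaps PBS, and Top2a is far above PBS in AML 1 and AML 2 only.

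The 23 interferon-stimulated genes tested had mostly positive fold changes. Of them, 1 (Ifi27l2a) passed the test, 12 were higher and 0 lower at an unadjusted p under 0.05, and 12 had AML libraries wholly above PBS. That compares with 7.25% and 10.9% of all genes tested. The median log2 fold change was 0.69 against -0.01 over all genes, and 22 of 23 were positive. The summed level of the list was 2144, 2172 and 2156 CPM in PBS and 2411, 3382 and 3240 CPM in AML, so AML 1 was the nearest to PBS. Rnf213, a large ubiquitin ligase, was at 31.1, 30.8 and 46.8 CPM in PBS and 90.9, 86.9 and 63.2 CPM in AML (1.09 ± 0.263, edgeR adjusted p 0.132). Parp14, an ADP-ribosyltransferase, had a log2 fold change of 0.89 ± 0.251 (adjusted p 0.218). Ifitm3, the highest of the list, was at 1158 to 1441 CPM in PBS and 1051 to 1604 CPM in AML (0.01 ± 0.259).

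Without AML 1 and AML 2 the interferon-stimulated list kept its direction. Against 3 PBS libraries, with AML 3 alone and its spread assumed to be like that of the PBS libraries, 13 of 23 were higher and 0 lower at an unadjusted p under 0.05, with 2.19% of all genes higher and 1.14% lower. The median was 0.75. Rnf213 was at 0.79 and Parp14 at 0.94 there. With AML 3 left out instead, 5 of 22 were higher and the median was 0.57, beside 12.5% of all genes higher and 12.9% lower. In that setting 4 of the 22 passed the test, beside 7.75% of all genes.

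The genes called with AML 3 alone against PBS, an alternative chosen after seeing the data, were 7 of 12503 (0.056%, edgeR). They were Cxcl10, Irf7, the MHC class II genes Cd74 (1.94, adjusted p 0.0320) and H2-Eb1 (1.79, adjusted p 0.00823), the hemoglobin genes Hbb-bs (2.28, adjusted p 0.000584) and Hba-a1 (2.23, adjusted p 0.00308), and Dscam (2.44, adjusted p 0.0320). A single cell held 479 of the 513 Hbb-bs UMIs of AML 3, and for Hba-a1 it was 218 of 232. These genes were named because the count was small, after their values were seen.

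The 14 tested genes of interferon gamma targets and GTPases gave a smaller shift. Cxcl10 passed the test, 2 were higher and 0 lower at an unadjusted p under 0.05, 3 had AML libraries wholly above PBS, and the median was 0.33. Over all genes tested, 0.0269% passed, 7.25% were higher, 4.50% lower and 10.9% wholly above. Irf1, the transcription factor at the head of this response, was at 44.0 to 68.7 CPM in PBS and 35.6 to 54.9 CPM in AML (-0.28 ± 0.263, edgeR adjusted p 0.684). Irgm1, an immunity-related GTPase, was at 0.13 ± 0.262. Gbp7, a guanylate-binding protein, had AML libraries at 28.5 to 31.0 CPM, all above the PBS libraries at 22.4 to 24.9 CPM (0.33 ± 0.244, adjusted p 0.593). Without AML 1 and AML 2 the median was 0.33.

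The lists of antigen presentation and NF-kB had medians near that of all genes, and for MHC class II this median lay between opposite shifts. For the 15 genes of MHC class I and the immunoproteasome the median was -0.08, with 2 higher and 1 lower at an unadjusted p under 0.05. Over all genes tested these shares were 7.25% and 4.50%. B2m, the common light chain of class I, was at 1461 to 1597 CPM in PBS and 942 to 1404 CPM in AML (-0.34 ± 0.255, edgeR adjusted p 0.594). For 9 MHC class II genes the median was 0.03. Their summed level was highest in AML 3 at 1026 CPM against 441 to 576 CPM in PBS and 263 and 346 CPM in AML 1 and AML 2. Without AML 3 the class II median was -1.05, with 6 of 8 genes lower at an unadjusted p under 0.05 and 3 passing the test, beside 12.9% and 7.75% of all genes. It was 0.44 without AML 1 and AML 2, with 5 of 10 higher and 2 passing. AML 3 also held 7 of the 15 cells of cluster 6, which the class II genes lead. The 15 NF-kB and inflammatory genes had a median of 0.09, and Ccl4, a chemokine, was at 246, 81.6 and 116 CPM in PBS and 65.9, 55.8 and 82.6 CPM in AML (-1.07 ± 0.337, adjusted p 0.275). The medians without AML 1 and AML 2 were -0.0031 for the class I list and 0.34 for the NF-kB list, and without AML 3 they were -0.14 and -0.16. In the fit without AML 3, 4 of 15 class I genes and 1 of 13 NF-kB genes passed, beside 7.75% of all genes. Of the class I genes, 2 were higher and 4 lower there at an unadjusted p under 0.05, beside 12.5% and 12.9% of all genes.

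G2M genes had the second highest median of all lists, and the difference lay in the libraries that stood apart. Of 22 genes tested, 0 passed the test, 18 were higher and 0 lower at an unadjusted p under 0.05, and the median was 1.41. Over all genes tested, 7.25% were higher and 4.50% lower. AML libraries lay wholly above PBS for 6 of the 22, beside 10.9% of all genes. Summed over the list, PBS libraries had 1043, 799 and 984 CPM, AML 1 and AML 2 had 2817 and 3888, and AML 3 had 1081. Top2a, the topoisomerase of chromosome condensation, was at 129, 90.1 and 128 CPM in PBS and at 707, 543 and 147 CPM in AML (1.98 ± 0.394, edgeR adjusted p 0.0772). Cdk1, the mitotic kinase, was at 62.3, 58.4 and 67.6 CPM in PBS and 99.8, 232.7 and 68.1 CPM in AML (0.96 ± 0.336, adjusted p 0.307).

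Once AML 1 and AML 2 were left out, 0 of the 22 G2M genes were below an unadjusted p of 0.05 and the median was 0.13, with Top2a at 0.34 and Cdk1 at 0.11. With AML 3 left out, 20 of 22 passed the test, beside 803 of 10358 genes in all (7.75%), and the median was 2.15. The S phase list did not share this, with 0 of 20 genes below an unadjusted p of 0.05, a median of -0.06 and sums of 1515 to 2014 CPM in PBS and 1776 to 2235 CPM in AML. The barcodes under the filter had G2M sums of 2074, 2275 and 1206 CPM in PBS and 2127, 2770 and 1689 CPM in AML. Without barcodes that passed the filter in another library these were 728, 1041 and 507 CPM in PBS and 2099, 2757 and 1255 CPM in AML. Depth per cell was lowest in AML 1 and AML 2. The members of AML 2 were also all of its cells that passed the filter, whereas elsewhere the table cells, with more G2M RNA, were left out. The part of these in the difference was not tested.

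Primary granule genes were highest in AML 2, whose members were all of its cells that passed the filter. In the other libraries the members were only the cells that the table left out. In the table cells of AML 1, Mpo was at 401 and Elane at 141 CPM, against 164 and 23.7 CPM in its members (both before TMM scaling), so the level in AML 2 and its selection cannot be told apart. Of 7 primary granule genes, 5 were higher and 0 lower at an unadjusted p under 0.05, 0 passed the test, and the median of 1.58 was the highest of the lists. Over all genes tested, 7.25% were higher and 4.50% lower. Mpo was at 60.2, 60.2 and 82.7 CPM in PBS and at 160.3, 465 and 75.2 CPM in AML (1.68 ± 0.436, edgeR adjusted p 0.163), so AML 3 lay inside the PBS range. Without AML 3 Mpo passed the test (2.14, adjusted p 0.000256), and without AML 2 its fold was 0.70 (adjusted p 0.601). In the fit without AML 3, 5 of the 7 genes passed, beside 7.75% of all genes, and the median was 2.14. Elane, neutrophil elastase, was at 3.14, 2.23 and 5.80 CPM in PBS and 23.2, 449.9 and 6.22 CPM in AML (5.06 ± 1.04, adjusted p 0.0772). Of the 145 Elane UMIs in AML 2, a single cell held 46. Prtn3 was at 733 to 1225 CPM in PBS and 775 to 1545 CPM in AML (0.13 ± 0.299). With AML 3 as the only AML library, the median was 0.14 and the log2 fold change of Elane was 0.65. Without AML 2 alone, 4 of 7 were higher, beside 5.33% of all genes, and the median was 0.70.

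Of 8 monocyte and macrophage genes, Ly86 passed the test, 4 were higher and 1 was lower at an unadjusted p under 0.05. Over all genes tested, 0.0269% passed, 7.25% were higher and 4.50% lower. Ms4a6c, a membrane protein of the MS4A family, was at 42.1, 42.4 and 56.4 CPM in PBS and 85.5, 127.2 and 90.9 CPM in AML (1.07 ± 0.248, edgeR adjusted p 0.114). Csf1r, the receptor of macrophage colony-stimulating factor, rested on few UMIs, 7, 1 and 11 for PBS and 3, 8 and 35 for AML (2.80 ± 0.650, adjusted p 0.114). F13a1, a coagulation factor subunit of monocytes, rested on even fewer, 8, 0 and 6 for PBS and 9, 7 and 20 for AML (3.38 ± 0.790, adjusted p 0.114). Lyz2, lysozyme, went the other way, with 94.5, 157 and 87.2 CPM in PBS and 23.2, 62.1 and 55.5 CPM in AML (-1.23 ± 0.316, adjusted p 0.155). Without AML 1 and AML 2 the folds were 0.945 for Ms4a6c, 2.20 for Csf1r, 1.88 for F13a1 and -1.01 for Lyz2. Without AML 3, 5 of 8 passed, 4 of them higher, beside 7.75% of all genes. The late granule, eosinophil and stromal lists had no gene above the filter on low counts.

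Lymphoid priming genes had positive fold changes throughout. Of 10 tested, 0 passed the test, 6 were higher and 0 lower at an unadjusted p under 0.05, 5 had AML libraries wholly above PBS, and the median was 0.81, beside 7.25% of all genes higher and 10.9% wholly above. The sums were 686, 629.8 and 786 CPM for PBS against 1103, 1349 and 1070.2 CPM for AML, with no overlap. Satb1, a chromatin organizer of early lymphoid cells, was at 60.8, 29.0 and 64.5 CPM in PBS and 146, 74.5 and 91.6 CPM in AML (1.00 ± 0.304, edgeR adjusted p 0.259). Ighm, the mu heavy chain gene, was at 66.6, 65.6 and 76.6 CPM in PBS and 137, 394.0 and 80.4 CPM in AML (1.44 ± 0.396, adjusted p 0.197). Ighm was far higher in the table cells of all libraries with a table but AML 1, and no table cells were taken out of AML 2, so its values for Ighm and for the list cannot be told apart from its selection. Flt3, a receptor of lymphoid-primed progenitors, was at 123 to 180 CPM in PBS and 146 to 189 CPM in AML (0.29 ± 0.241). In AML 3 alone against PBS, 4 of 11 were higher at an unadjusted p under 0.05 and the median was 0.51, with Satb1 at 0.80 and Ighm at 0.20. Without AML 3, 5 of 10 were higher, 3 passed the test and the median was 0.89, beside 12.5% of all genes higher and 7.75% passing.

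**Figure D5:**
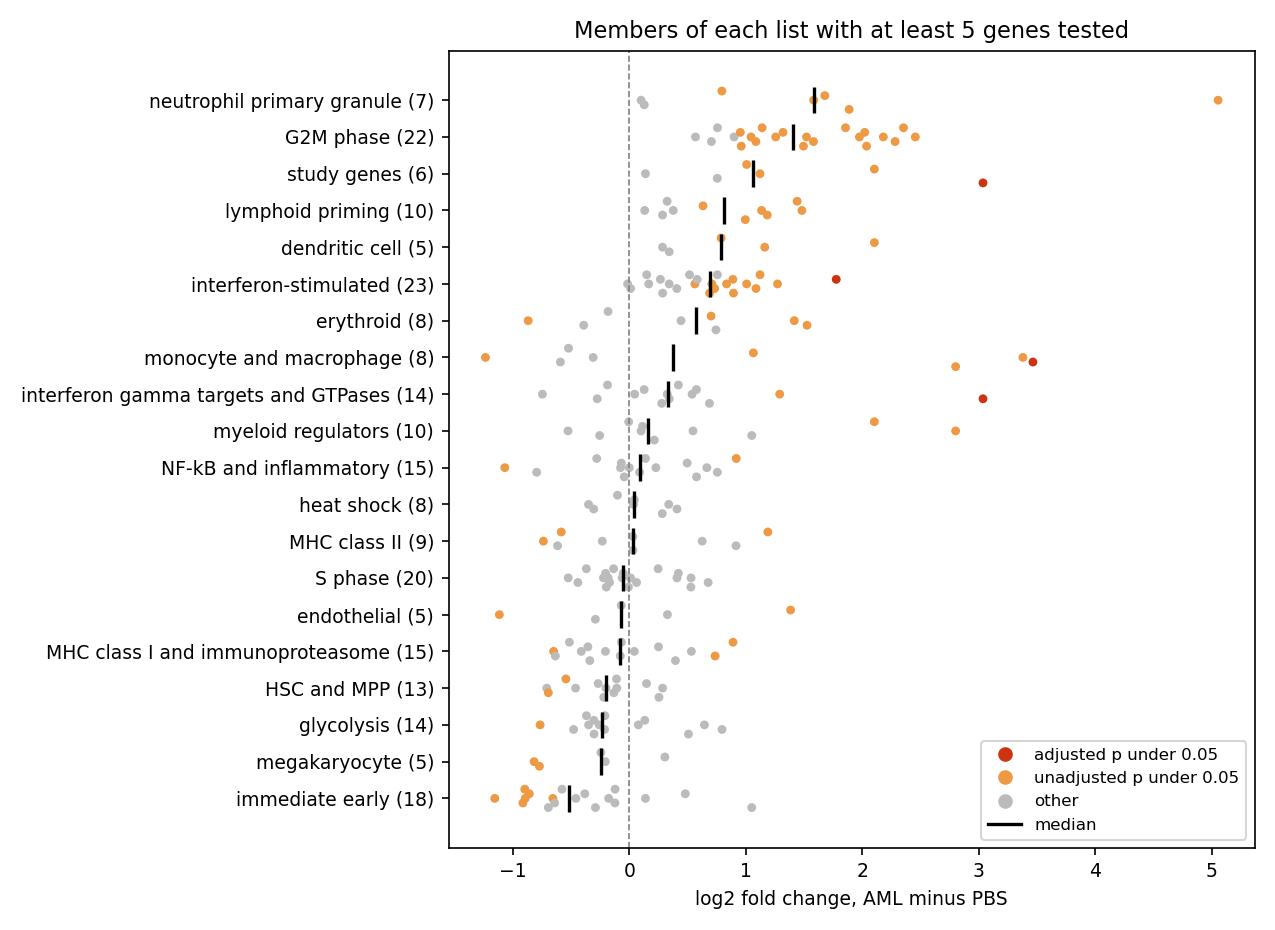
Log2 fold change (AML minus PBS) of each tested gene in the lists with at least 5 tested genes (number in parentheses), with a black bar at the median; red points passed the adjusted threshold, orange points had an unadjusted p under 0.05, gray points neither. Only Ly86, Cxcl10 and Ifi27l2a are red, and the medians run from -0.52 for immediate early genes to 1.58 for primary granule genes.

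Stem cell and megakaryocyte genes had mostly negative fold changes, and none passed the test. In the HSC and MPP list, 0 of 13 were higher and 2 were lower at an unadjusted p under 0.05, 4 had AML libraries wholly below PBS, and the median was -0.20, beside 4.50% of all genes lower and 11.3% wholly below. Cd34 was at 319, 336 and 265 CPM in PBS and 241, 199 and 226 CPM in AML (-0.46 ± 0.229, edgeR adjusted p 0.441). The 5 megakaryocyte genes had a median of -0.24, with 0 higher and 2 lower at an unadjusted p under 0.05. The erythroid list changed direction with the libraries used. Of 8 erythroid genes 3 were higher and 1 was lower at an unadjusted p under 0.05, beside 7.25% and 4.50% of all genes, with a median of 0.57. The 1 lower was Car2, a carbonic anhydrase gene, which was at 657, 707 and 664 CPM in PBS and 271, 338 and 489 CPM in AML (-0.87 ± 0.258, adjusted p 0.255). Without AML 3 the erythroid median was -1.69, with 4 of 7 lower and 1 higher at an unadjusted p under 0.05 and 1 passing the test, beside 12.9%, 12.5% and 7.75% of all genes. It was 1.26 without AML 1 and AML 2, with 6 of 11 higher, 0 lower and 2 passing, and the fold of Car2 was -0.47. The 2 that passed were Hbb-bs and Hba-a1, and the highest AML 3 cell held 479 of 513 and 218 of 232 of their UMIs in that library. Leaving out AML 1 and AML 2, the median of the HSC and MPP list was -0.03, and 0 of its 14 genes were lower at an unadjusted p under 0.05. The megakaryocyte median was then -0.31, and the fold of Cd34 was -0.44.

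Immediate early genes had mostly negative fold changes, with PBS 1 the highest library. Of 18 tested, 0 passed the test, 6 were lower and 0 higher at an unadjusted p under 0.05, beside 4.50% of all genes lower, and the median was -0.52. The list summed to 3003, 2292 and 1339 CPM in PBS and 1136, 1327 and 1572 CPM in AML, and the groups overlapped. Ier2 was at 883, 576 and 509 CPM in PBS and 216, 208 and 438 CPM in AML (-1.15 ± 0.308, edgeR adjusted p 0.176). Without PBS 1, 2 of 17 were lower at an unadjusted p under 0.05, beside 3.55% of all genes, and the median was -0.44. With both AML 1 and AML 2 left out, 3 of 18 were lower, the median was -0.47 and the fold of Ier2 was -0.58. Immediate early genes lead cluster 1, which was 71.1% of PBS 1, and the part of that library in the difference was not tested.

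The genes with the lowest p among those that did not pass included regulators of several kinds. Pou2f2, which encodes the B cell transcription factor OCT2, was at 18.8, 15.6 and 20.2 CPM in PBS and 69.5, 90.0 and 38.9 CPM in AML (1.68 ± 0.294, edgeR adjusted p 0.0543). Parp8 was at 90.5, 67.8 and 145 CPM in PBS and 542, 447 and 154.0 CPM in AML (1.87 ± 0.375, adjusted p 0.0772). Pecam1, an adhesion molecule of endothelial and blood cells, was at 33.9, 29.9 and 38.9 CPM in PBS and 130.1, 99.3 and 55.8 CPM in AML (1.39 ± 0.294, adjusted p 0.0772). Emcn, another gene of the endothelial list and a marker of stem cells, lay below PBS in AML (-1.12 ± 0.348, adjusted p 0.268), and Cdh5, the defining endothelial cadherin, was at 0 in all libraries. Ccl5, an inflammatory chemokine chosen after its values were seen, was at 44.8, 13.4 and 12.6 CPM in PBS and 71.3, 71.4 and 102.3 CPM in AML (1.79 ± 0.385, adjusted p 0.0856), with 145 of 386 UMIs in PBS 1 and 184 of 691 in AML 3 from single cells. The log2 fold changes without AML 1 and AML 2 were 1.07 for Pou2f2, 0.59 for Parp8, 0.69 for Pecam1, -0.82 for Emcn and 2.03 for Ccl5.

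The remaining lists had no gene that passed over all 6 libraries. Their counts stand beside 7.25% of all genes higher and 4.50% lower at an unadjusted p under 0.05. Of 5 dendritic cell genes 3 were higher and 0 lower at an unadjusted p under 0.05 (median 0.79), of 4 B cell genes 2 and 0 (0.51), of 4 NK cell and ILC genes 1 and 0 (-0.09), and of 10 myeloid regulators 2 and 0 (0.16), Irf8 and Csf1r. Of 5 endothelial genes 1 was higher and 1 lower (-0.07), and of 14 glycolysis genes 0 and 1 (-0.24). The 3 plasma cell genes (0.27), 2 T cell genes (-0.40), 4 mast cell and basophil genes (0.20) and 8 heat shock genes (0.04) had none below that p in either direction. Without AML 1 and AML 2 the medians were 0.81 for dendritic cell genes, 0.75 for B cell genes and 0.89 for NK cell and ILC genes. Without AML 3, 2 of 5 dendritic cell genes, 1 of 3 B cell genes, 2 of 3 endothelial genes, 2 of 10 myeloid regulators and 2 of 14 glycolysis genes passed, beside 7.75% of all genes, and the NK cell and ILC median was -0.38.

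On the lower side no gene passed. Myct1, a target gene of MYC, was at 166, 167 and 143 CPM in PBS and 73.0, 40.3 and 92.1 CPM in AML (-1.11 ± 0.262, edgeR adjusted p 0.116). Cd63, a tetraspanin of late endosomes, had a log2 fold change of -1.10 ± 0.274, Nrgn, a calmodulin-binding protein, of -1.06 ± 0.263, and Gng11, a G protein gamma subunit, of -1.11 ± 0.276, each with an adjusted p of 0.146. These 4 genes had AML libraries wholly below PBS, with AML 3 the nearest to it. With only AML 3 against PBS their log2 fold changes lay between -0.81 and -0.58.

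Within clusters, 2 had enough cells to be compared, and the mix of lineages inside a cluster was not tested. Cluster 2, led by S phase genes and lineage genes, had at least 20 cells in all 6 libraries. Of 6771 genes tested, 4 were higher in AML and 0 lower (0.0591%, edgeR adjusted p under 0.05), with 169 at an unadjusted p under 0.05. Irf7 was at 40.6, 25.2 and 20.5 CPM in PBS and 66.9, 112.7 and 108.9 CPM in AML (1.73 ± 0.323, adjusted p 0.0142). Its UMIs were 87, 7 and 21 in PBS and 5, 7 and 231 in AML. Gem, a small GTPase, was at 17.3, 39.6 and 13.7 CPM in PBS and 40.1, 48.3 and 82.0 CPM in AML (1.90 ± 0.369, adjusted p 0.0171). The Gem values of AML 1 and AML 2 rested on 3 UMIs each. Ly86, which is among the leading genes of this cluster, was at 34.5, 7.20 and 106 CPM in PBS and 120.4, 467 and 173.9 CPM in AML (1.98 ± 0.404, adjusted p 0.0299). The fourth was the histone gene Hist1h2ap, whose groups overlapped. Isg15 was above PBS in every AML library here too (0.89 ± 0.267) but did not pass. Without AML 3 the fold was 1.55 for Irf7 (adjusted p 0.471), 1.22 for Gem (0.689) and 2.41 for Ly86 (0.357), so 3 calls were lost while the folds stayed positive. Gem also missed the threshold without PBS 1 (0.0756) and without PBS 3 (0.0792). DESeq2 and limma-voom called 0 genes in cluster 2, with 59 and 168 at an unadjusted p under 0.05.

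Cluster 4, with G2M genes, could be compared over PBS 1 and 3 and the 3 AML libraries. Of 4279 genes tested, edgeR called 0 (0% of them), with 415 at an unadjusted p under 0.05 and 0 called by DESeq2 and by limma-voom (210 and 366 unadjusted). Without AML 3, 252 genes were called (5.63% of those tested), 163 higher and 89 lower, and without PBS 1 and without PBS 3 the counts were 6 and 7. Ly86 was at 20.2 and 30.7 CPM in PBS and 182, 362 and 56.8 CPM in AML (2.93 ± 0.631, adjusted p 0.169). Cdk1 was at 190 and 181 CPM in PBS and 116, 306 and 196 CPM in AML (0.13 ± 0.423), and the groups overlapped.

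The AML effect in the members was set against the AML effect in the table cells of the same libraries, for the 5 libraries with both. The table itself divided members from table cells, so a difference cannot be told apart from that choice. The difference passed the test for 33 of 12880 genes (0.256%, edgeR interaction with library terms), 16 with the more positive fold outside the table and 17 with the more negative. Of these 33 genes, 4 passed again without AML 3, and 0 passed with limma-voom and the library as a random effect (534 genes unadjusted). For the 3 genes called above and Isg15, no difference passed the test. It was -0.17 for Ly86 (95% interval -0.50 to 0.16, adjusted p 0.809), 0.04 for Ifi27l2a (-0.20 to 0.27, adjusted p 0.968), 1.06 for Cxcl10 (0.08 to 2.05, adjusted p 0.484) and -0.09 for Isg15 (-0.26 to 0.08, adjusted p 0.816). The value for Cxcl10 rested on the PBS libraries, at 2.55 without PBS 1 (adjusted p 0.0261) and -0.30 without PBS 3 (adjusted p 0.963). Irf8 differed by -0.57 (-0.91 to -0.23, edgeR adjusted p 0.1996) and Irf7 by 0.28 (0.06 to 0.50, adjusted p 0.385). Nfkb1 differed by 0.0042 and Nfkb2 by -0.30. None of these passed, though Irf8 did in 1 of 7 alternatives (adjusted p 0.0357).

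The 5 genes with the lowest p were 4 myeloid genes and Car1. Mpo had the smaller fold outside the table, at 60.0, 59.6 and 81.6 CPM in PBS and 154 and 74.1 CPM in AML 1 and AML 3, against 75.7, 88.5 and 112.5 and then 399.0 and 189.9 CPM in the table (difference -0.93 ± 0.0972, edgeR adjusted p 1.51e-05). Prtn3 differed by -0.74 ± 0.0668 (adjusted p 2.05e-06). Fcer1g, the common gamma chain of Fc receptors, differed by -0.75 ± 0.0882, and Tyrobp, the adaptor DAP12, by -0.65 ± 0.0768, each with an adjusted p of 4.96e-05. Car1 differed by 2.16 ± 0.235 (adjusted p 2.25e-05), at 46.1, 4.41 and 55.5 CPM in PBS and 6.83 and 91.6 CPM in AML outside the table. Without AML 3 the Car1 difference turned to -1.06. The gene signatures behind the classes of the table were not used here, and whether these genes are among them was not examined.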

How the data were processed

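Per the labels and the study's methods, the deposited matrices are raw UMI counts per gene and barcode from Cell Ranger 7.0.1 with the GRCm38 (mm10) mouse genome. The authors filtered, clustered and scored cells in Seurat 4.3.0 (R 4.2.2, per the submitters' processing notes), and their cell table gives UMI and gene counts, mitochondrial and ribosomal percentages computed by the authors, module scores and class assignments. Another 17 columns of it were not used. The UMI totals of all 16822 table cells equaled the matrix sums.

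Members were chosen by the rule given above (1000 genes, 10% mitochondrial UMIs, no table row). Their counts were summed per library and compared with edgeR 4.0.16 (TMM, filterByExpr, glmQLFTest, Benjamini-Hochberg over all genes tested, two-sided, threshold 0.05) in R 4.3.3. DESeq2 1.42.0, limma-voom 3.58.1 and other filters, scalings and sets of libraries were alternatives. Clusters came from scanpy 1.11.5 (2000 variable genes, 30 components, Leiden resolution 0.5). Clusters were tested where at least 2 libraries of each group had 20 cells. Gene positions are from GENCODE for GRCm38. Scrublet (in scanpy) marked 6 members and 16 of 21461 passing barcodes, and doublets were not removed. The members, gene lists and tests were chosen with earlier results of these data known. Named genes were the 7 study genes, called genes and the lowest-p genes that fill each direction to 5 (mean log2 CPM of at least 5), the 3 highest members of each list, and in the interaction the 5 lowest p. Csf1r, F13a1, Rnf213, Parp14, Elane, Satb1, Ccl5 and Hist1h2ap, and the genes called without AML 1 and AML 2, were chosen after their values were seen. Some genes that the rule names are not reported here. The scripts were tested on simulated data. Counting is per UMI, and the standard errors cover the spread of 3 libraries a group. Replicate numbers were not used to pair samples.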

Additional observations from a re-analysis of the deposited data

Results flagged for a closer look

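The AML effect differed between cells outside and in the table for the 5 genes with the lowest p in the interaction test over 5 libraries. The authors' table itself divided these cells, so the differences cannot be told apart from that choice. The log2 difference (outside minus table) was -0.74 for Prtn3, -0.932 for Mpo, -0.753 for Fcer1g and -0.646 for Tyrobp, and 2.16 for Car1 (edgeR adjusted p from 2.05e-06 to 4.96e-05). Of the 33 genes that passed, 9 passed again without PBS 1, 33 without PBS 2, 14 without PBS 3, 25 without AML 1 and 4 without AML 3. With limma-voom and the library as a random effect 0 passed, with 534 genes at an unadjusted p under 0.05. Without AML 3 the Car1 difference was -1.06 (adjusted p 0.798), and Fcer1g (-0.63, adjusted p 0.188) and Tyrobp (-0.59, adjusted p 0.0746) no longer passed although their values moved little. Car1 was at 3769 CPM in the 66 members of cluster 5 and at 2.73 CPM in the other members.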

How the results depend on the processing

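The number of genes called in the comparison over all members moved with the setting. Against 3 genes, DESeq2 called 56, library size in place of TMM 53, no filter on low counts 252, at least 1500 detected genes 21, an equal number of cells per library 71 and sums thinned to the smallest library 50 (the last chosen after seeing the data, as were leaving out members with barcodes that passed the filter in another library, which gave 3, and leaving out AML 1 and AML 2 together, which gave 7). The replicate block gave 0, with 1309 at an unadjusted p under 0.05. After each gene's mean within its group was subtracted, same-numbered libraries correlated at 0.0539, 0.0650 and -0.124. Other AML and PBS pairs ran from -0.128 to 0.0954. With so few libraries a group, these values cannot settle whether the numbers pair anything. Leaving out 1 library gave 0 to 803 calls: 0 without PBS 3 (1136 unadjusted), 1 without PBS 2, 2 without PBS 1 and without AML 2, and 803 without AML 3. The cause was not tested. limma-voom called the same 3 genes. The median over all genes was -0.01 with TMM and 0.10 with library size only. Ly86, Ifi27l2a and Cxcl10 were positive under every alternative in which they were tested.

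In cluster 2 the count was 4, and 0 with DESeq2, limma-voom and the replicate block (234 unadjusted), 7 with library size only, 10 with at least 50 cells (AML 3 against PBS 1 and 3), 18 with no filter and 5 to 11 without 1 library. In cluster 4 it was 0, and 36 with no filter, 2 with the replicate block, 252 with at least 50 cells and 0 to 252 without 1 library. In the interaction it was 33, and 107 with no filter, 0 with limma-voom and 11 to 90 without 1 library. Nfkb1 turned sign near 0: -0.059 with at least 1500 genes, -0.032 (replicate block), -0.029 (at least 50 cells) and -0.074 to 0.30 (without 1 library) in cluster 2, 0.0070 (DESeq2), 0.028 (library size only), 0.10 (replicate block) and -0.096 to 0.14 (without 1 library) in cluster 4, and -0.059 (limma-voom) and -0.13 to 0.059 (without 1 library) in the interaction. Without 1 library the interaction also turned for Ifi27l2a (-0.051 to 0.51), Cxcl10 (-0.30 to 2.55), Ly86 (-0.27 to 0.28), Irf7 (-0.0041 to 0.35) and Car1 (-1.06 to 2.44). The AML minus PBS share turned for cluster 1 (-33.4 to 2.10 percentage points), cluster 3 (-2.31 to 9.86), cluster 5 (-0.68 to 0.63) and cluster 6 (-0.16 to 0.15).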
